A study of Microtus ochrogaster with 34 samples.

Results

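The genes described here are those whose testis transcripts were scarce in regressed winter voles and averaged at least 0.6 of the summer level in winter voles with active testes. They were chosen from the group means of RPKM, read counts scaled to exonic length and to a size factor of the library. The size factor is the median over genes of the ratio of its counts to the average over libraries. The rule asked for a mean of at least 5 RPKM in summer (S) males. The S mean had to be at least 16 times the mean of regressed winter (W-) males. The mean in active winter (W+) males had to be at least 0.6 of the S mean. Of the 23038 genes measured, 197 met the rule. They were 19.2% of the 1028 genes that met the S and W- limits, and the 831 others, whose W+ mean was under 0.6 of the S mean, are called the other lost genes. Because the rule used all 3 group means, the distance between groups in these genes is a description and carries no p-value.

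RNA was sequenced from 1 frozen testis of each of 34 wild male fossorial water voles, *Arvicola terrestris scherman*: 18 S, 11 W- and 5 W+. S males were trapped in July and August and winter males in January and February. All were of reproductive age and labelled as wild-type, with no treatment and no exact age or batch given. The paper names several trapping sites and years, which the sample titles do not assign to animals. It also states that captured males were housed in a controlled environment with a fixed light cycle and fed carrots. W+ males are winter males with complete spermatogenesis by histology, whereas W- males are the winter males without it, a group that holds both empty tubules and an intermediate state. The labels name the reference species, *Microtus ochrogaster* (prairie vole), as organism, and the reads were aligned to its genome. The sources used here pair no gene identifier with a symbol, so the genes are described by their values, the lists of germ cell and somatic markers could not be read, and the labelled tissue was not checked against its markers.

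In seasonal breeders the testis shrinks outside the breeding season as the seminiferous tubules lose their dividing and differentiating germ cells, while Sertoli, Leydig and other somatic cells and early germ cells largely remain. Spermatocytes in meiosis and the spermatids that follow transcribe large sets of genes that no somatic cell uses, so whole-testis RNA changes as these cells leave. Bulk RNA gives only the sum over cells, and fewer cells of a type and less RNA per cell cannot be told apart in any value given here.

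Whole reads were recovered from the deposited values of all genes above 0. They gave 5534633 to 63857259 counted reads a library in S, 4960104 to 8576453 in W+ and 2938627 to 9653984 in W-. These are reads counted on genes of the reference, not all reads sequenced. W- 5 had the fewest counted reads and S 12 to S 15 had the most. The RPKM summed over all genes also differed between groups, with 633301 to 762253 in S, 470377 to 557930 in W+ and 389894 to 541074 in W-, so levels relative to S depend on the scaling, as given beside the results.

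In group means, most of the 197 genes were well expressed in summer and fell to a few percent of that level in regressed testes. The 197 genes stood mostly somewhat below the summer level in active winter testes. Their S means ran from 5.63 to 928 RPKM, with a median of 58.6 RPKM. In W- the means ran from 0.0351 to 47.5 RPKM with a median of 2.77 RPKM, and in W+ from 3.55 to 618 RPKM with a median of 39.3 RPKM. The S mean was 16.0 to 271 times the W- mean, with a median of 21.0, so most genes lay near the limit of 16. The W+ mean was 0.601 to 1.15 of the S mean, with a median of 0.683, beside 0.925 over all 10529 genes with an S mean of at least 5, so most of the 197 genes were kept in part.

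In the limma fit over 19185 genes, all 197 genes were called higher in S than in W-, where 28.7% of the genes tested were called in that direction, and all 197 were called higher in W+ than in W-, against 21.9%. In W+ vs S, 1 of the 197 was called lower, where 7.04% of the genes tested were called, and none higher, where 1.19% were. At an unadjusted p under 0.05, limma gave 76 of the 197 lower and 0 higher, beside 22.9% and 14.7% of the genes tested. A voom fit to the recovered reads gave 160 lower and 0 higher, beside 23.9% and 14.9%, with 1 and 0 called. Without W+ 1 no gene was called lower (4.03% of the genes tested), and without W+ 2 (5.88%), or without W+ 3 (7.91%), 2 genes were. These counts follow from the rule and support nothing by themselves. The median log2 difference over the 197 genes was 4.60 in S vs W-, 4.01 in W+ vs W- and -0.60 in W+ vs S, beside 0.04, -0.02 and -0.06 over all genes tested. In the other lost genes the median in W+ vs S was -1.33, and 585 of 831 were called lower.

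**Figure D1:**
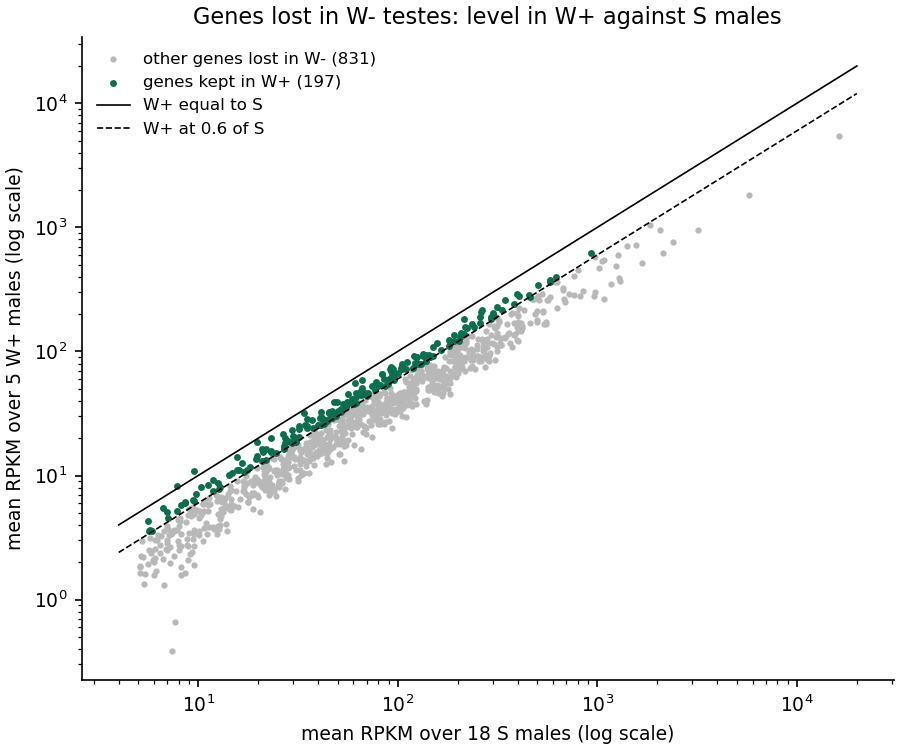
Mean RPKM in W+ (vertical, log axis) against mean RPKM in S (horizontal, log axis) for the 197 genes and the 831 other lost genes, 1 point a gene. The 197 genes lie between 0.601 and 1.15 of the S mean, mostly under the line of equal levels.

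The loss in regressed testes was shallower than in the other lost genes. Of the 197 genes, 178 had an S mean under 32 times the W- mean and 19 had 32 times or more, whereas the median in the other lost genes was 72.3 times, over the 826 of them with a W- mean above 0. The share of lost genes that met the W+ limit fell with the depth of loss: 178 of 395 genes (45.1%) at 16 to 32 times, 15 of 189 (7.94%) at 32 to 64 times, 2 of 192 (1.04%) at 64 to 128 times, and 2 of 252 (0.794%) at 128 times or more, which includes genes with a W- mean of 0. The median of W+ over S across all lost genes fell over the same bins from 0.576 to 0.471, 0.420 and 0.367. Both ratios contain the S mean, so this relation is given without a test. By S level the share moved less, between 15.6% at 200 RPKM or more and 23.2% at 50 to 100 RPKM.

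**Figure D2:**
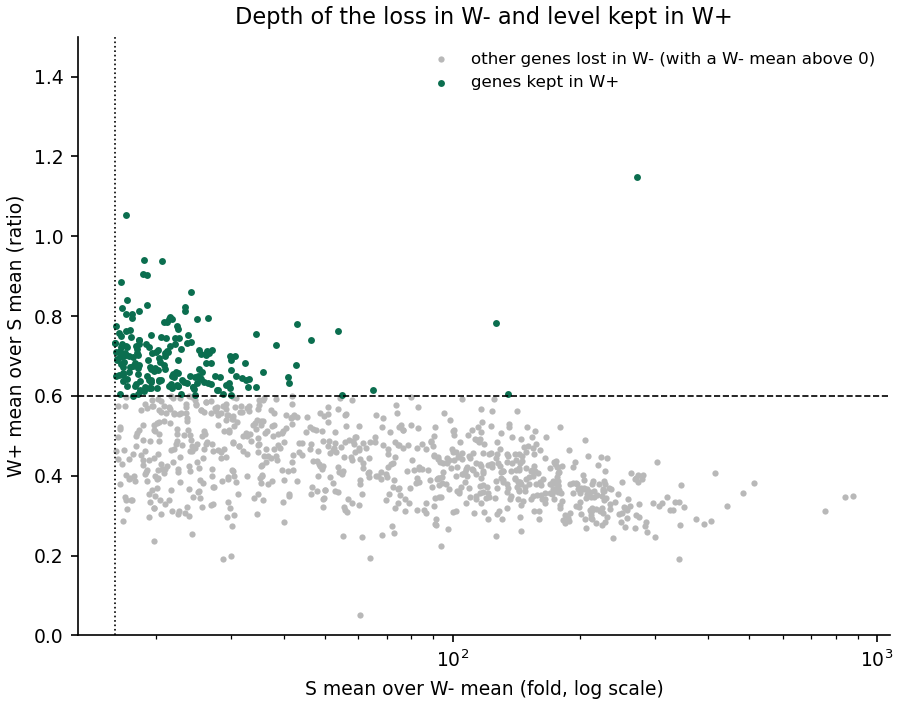
W+ mean over S mean (vertical) against S mean over W- mean (horizontal, log axis) for the lost genes with a W- mean above 0, 1 point a gene, with the limits of the rule as lines. The 197 genes crowd near the fold limit of 16, and the ratio of W+ to S is lower among genes with a deeper loss.

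The 5 W+ males were not alike, and W+ 1 stood apart. The median level of the 197 genes, as a percent of each gene's S mean, was 38.9% in W+ 1, 69.8% in W+ 2, 81.4% in W+ 3, 74.0% in W+ 4 and 78.1% in W+ 5. W+ 1 held the lowest W+ value of 187 genes and was at 60% of the S mean or more in 7 genes, whereas W+ 2 to W+ 5 reached this level in 146, 175, 181 and 181 genes. The mean of the 5 medians was 68.4% ± 17.1 (SD, n = 5), and without W+ 1 it was 75.8% ± 5.06 (SD, n = 4). Without W+ 1 the median gene had a W+ mean of 0.752 of the S mean, 59 genes in place of 16 reached 0.8, and 300 genes in place of 197 met the rule, the 197 among them.

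Part of the genes lay inside the spread of summer animals in W+ 2 to W+ 5, which follows in part from the rule. The S animals themselves ran from 74.6% (S 18) to 115% (S 2) of the S mean, with a mean of 99.8% ± 10.1 (SD, n = 18). W+ 3 and W+ 5 were therefore inside the S range in their median, W+ 4 was just under it, W+ 2 was further below and W+ 1 was far below. Gene by gene, 17 genes in W+ 1 were at or above the lowest S animal, against 121 in W+ 2, 152 in W+ 3, 151 in W+ 4 and 151 in W+ 5. In 81 of the 197 genes none of W+ 2 to W+ 5 was below the lowest S animal, and in 16 no W+ male was. Both shares were smaller than over the genes tested, where they were 71.2% and 64.1%. In 12 genes every W+ male was below every S male (6.09% of the 197), beside 5.23% of the genes tested and 448 of the 831 other lost genes.

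The W+ males stood in the same order in the other lost genes, but W+ 2 was further from the rest. Their median was 20.6% of the S mean in W+ 1, 32.2% in W+ 2, 56.0% in W+ 3, 47.2% in W+ 4 and 51.4% in W+ 5. The 197 genes were thus 1.89 and 2.17 times as high as the other lost genes in W+ 1 and W+ 2, and 1.45 to 1.57 times in W+ 3 to W+ 5. The rule used the W+ mean, to which each of these animals contributed, so neither the higher level nor its unequal size between animals is a finding.

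The share of counted reads, which does not depend on the scaling between libraries, placed all W+ males but W+ 1 inside the S range. The 197 genes took 2.85% ± 0.189 of the reads in S (SD, n = 18; 2.30% to 3.16%) and 0.219% ± 0.108 in W- (SD, n = 11; 0.0359% to 0.447%). In the W+ males they took 1.64%, 2.67%, 2.74%, 2.58% and 2.74%, in order of number. The other lost genes took 12.4% to 15.8% of the reads in S and 4.31% to 9.87% in W+, with no overlap. Both sets were cut on the W+ mean, so where the W+ males fell against the S range follows in part from the rule. A share can also move because other transcripts take more or fewer reads.

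The scaling moved the level of the 197 genes in W+ but not its direction in the median. When every library was rescaled to the same sum, the median log2 difference over all genes shifted by 0.36 in W+ vs S and by -0.55 in S vs W-. The median of the 197 genes in W+ vs S became -0.20, beside 0.30 over all genes tested, and the animals' medians became 57.6%, 94.5%, 102%, 93.2% and 99.9% of the S mean. Under that scaling 264 genes met the rule and only 52 of them were among the 197, because 142 of the 145 genes that dropped out had an S mean under 16 times the W- mean.

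**Figure D3:**
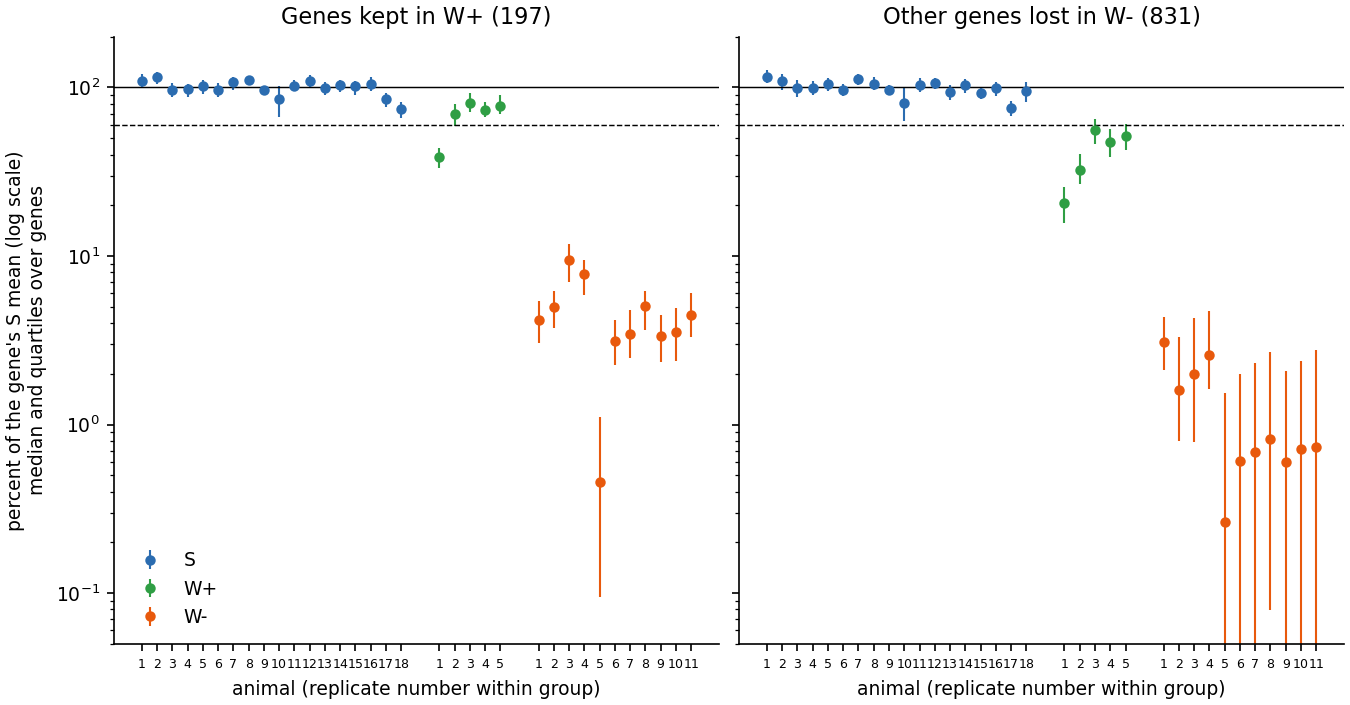
Median percent of the S mean in each animal (vertical, log axis), with bars from the first to the third quartile over genes, for the 197 genes and the 831 other lost genes; bars that reach under 0.05% are cut at the axis. W+ 1 sits below the other W+ males in both sets, and W- 3 and W- 4 are the highest W- males in the 197 genes.

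The W- males fell into a wide range as well. The median of the 197 genes was 4.17% of the S mean in W- 1, 5.01% in W- 2, 9.45% in W- 3, 7.80% in W- 4 and 0.454% in W- 5, and it ran from 3.12% to 5.08% in W- 6 to W- 11. Their mean was 4.54% ± 2.40 (SD, n = 11). The highest W- value lay in W- 3 for 127 genes and in W- 4 for 45. In the other lost genes W- 1 was the highest W- male, for 372 of 831 genes, with a median of 3.07% against 1.98% in W- 3 and 2.58% in W- 4. The W- males ranked highest by the 2 sets were therefore different animals, and without W- 3 and W- 4, an alternative chosen after seeing the data, 255 genes met the rule.

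In W- 6 to W- 11 the 2 sets lay furthest apart, the 197 genes being 4.97 to 6.17 times as high as the other lost genes, against 1.36 to 4.77 times in W- 1 to W- 5. Over these 6 males the median gene stood at 3.99% of its S mean, against 0.793% in the other lost genes. The rule used the W- mean, and no test was run on this gap. In W- 5, the library with the fewest counted reads, 47 of the 197 genes had 0 reads. There 3 reads, the limit that a count of 0 allows, correspond to 3.00% of the S mean in the median of these 47 genes. The range is 0.259% to 74.3%, for counting error only. Without W- 5 the rule found 161 genes, all among the 197.

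The groups were well separated from W- gene by gene. In 193 of the 197 genes every S male was above every W- male, beside 23.0% of the genes tested, and in 195 every W+ male was above every W- male, beside 19.8%. The rule used both contrasts, and nothing is read from these counts. The read support in W- was mostly ample, with a median of 602 reads a gene over the 11 libraries, but 8 genes had under 20 reads there and the lowest had 1 read, so their fold is loosely known.

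Spread between animals was ordinary in summer and larger in winter. The coefficient of variation (SD over mean) of the 197 genes had a median of 17.4% over S, 29.5% over W+ and 58.4% over W- males, beside 17.8%, 39.3% and 89.7% in the other lost genes and 15.7%, 21.0% and 26.1% in all genes with an S mean of at least 5. S 18 was the lowest S male for 83 of the 197 genes and S 10 for 52. In the other lost genes S 17 and S 10 were the lowest, in 279 and 272 genes, and S 18 was at 94.8% of the S mean in the median, against 74.6% in the 197 genes. S 18 was the S male in which the 2 sets lay furthest apart, with a ratio of 0.787 against 0.947 to 1.14 in the other 17.

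The 12 most abundant of the 197 genes in summer had S means of 333 to 928 RPKM and made up 29.3% of the summed S RPKM. Their W+ means were 0.601 to 0.763 of the S mean, their S means 16.2 to 33.1 times the W- mean, and their coefficients of variation in S 9.09% to 18.6%. None of these 12 genes was thus among the 16 with a W+ mean of 0.8 of the S mean or more. The highest, ENSMOCG00000010393, had 590 to 1143 RPKM in S with a median of 929. In W+ 1 to W+ 5 it had 407, 596, 781, 728 and 581 RPKM, and in W- 2.43 to 104 RPKM with a median of 40.9. W+ 3 and W+ 4 and also W+ 2 lay inside the S range, W+ 5 just below it and W+ 1 well below, and no W- male reached any W+ male. Its means were 928 ± 134 (SD, n = 18), 618 ± 146 (SD, n = 5) and 47.5 ± 30.03 (SD, n = 11) RPKM, and 47.5 was also the highest W- mean of the 197.

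By the ratio of W+ to S, 113 genes lay below 0.7, 68 at 0.7 to 0.8 and 16 at 0.8 or more, of which 2 had a W+ mean above the S mean. In the 16 genes W+ 2, W+ 4 and W+ 5 stood at 100.1%, 91.9% and 95.7% of the S mean in the median, W+ 3 equalled the S mean and W+ 1 stood at 45.3%. In the 113 genes W+ 2 to W+ 5 stood at 63.5%, 79.0%, 71.7% and 74.5%, and W+ 1 at 36.4%. The bands differed most in W+ 2 and least in W+ 1, but they were cut on the W+ mean, so nothing is read from this.

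The 2 genes with a W+ mean above the S mean were uneven among summer males. ENSMOCG00000013397 had the highest ratio, 1.15, and the deepest loss, 271 times. In S it was at 20.3 to 55.2 RPKM in 5 males and at 0 to 0.550 RPKM in the other 13. In W+ 1 to W+ 5 it had 4.54, 0.340, 18.9, 14.5 and 16.3 RPKM, and in W- at most 0.264 RPKM, from 4 reads over the 11 libraries. No S male lay between 0.550 and 20.3 RPKM, whereas W+ 1, W+ 3, W+ 4 and W+ 5 did. The S mean of 9.52 ± 17.2 RPKM (SD, n = 18) describes no single animal.

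ENSMOCG00000012675 had a ratio of 1.05. In S it ran from 0 RPKM, in S 4 and S 16, to 21.5 RPKM, with a median of 7.83. In W+ 1 to W+ 5 it had 2.67, 11.7, 11.9, 9.78 and 5.20 RPKM, and in W- 0 to 1.25 RPKM with a median of 0.311. All W+ values lay inside the S range, and every W+ male was above every W- male. In 5 of the 197 genes, both of these among them, the highest S value was over 10 times the lowest.

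**Figure D4:**
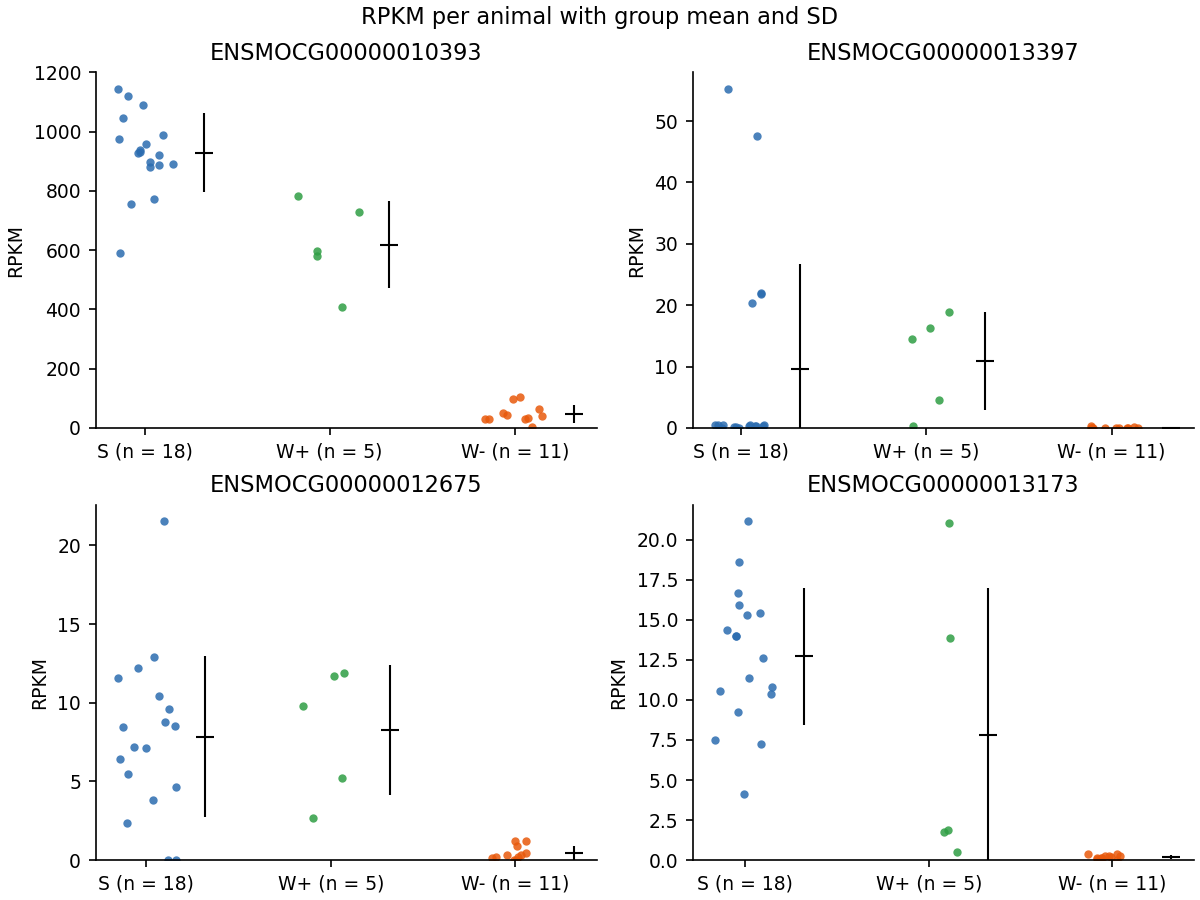
RPKM of 4 genes in each animal (points, linear axes from 0) by group, with the mean and SD as line and bar; SD bars that would pass below 0 are cut there. ENSMOCG00000010393 shows the graded order S, W+, W-, whereas ENSMOCG00000013397 is high in 5 of 18 S males and near 0 in the rest.

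The only gene called lower in W+ than in S, ENSMOCG00000013173, is named because of that call, after its values were seen. It had 4.12 to 21.1 RPKM in S with a median of 13.3. In W+ 1 to W+ 5 it had 0.536, 13.9, 1.77, 1.90 and 21.0 RPKM, and in W- 0 to 0.384 RPKM. W+ 2 and W+ 5 were thus inside the S range, whereas W+ 1, W+ 3 and W+ 4 were below every S male. The mean on the linear scale, 7.82 ± 9.17 RPKM (SD, n = 5), rests on those 2 animals and gives a ratio of 0.614, while the difference of means on log2(RPKM + 0.1) was -1.70.

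Length was not used by the rule. The exonic length recovered from the RPKM steps had a median of 1641 bases in the 197 genes (83 to 14175), beside 1209 bases in the other lost genes and 1803 bases in all genes with an S mean of at least 5. Across the lost genes the share that belonged to the 197 was 13.7% below 804 bases, 12.4% from 804 bases, 24.9% from 1286 bases and 25.7% from 2203 bases, so the longer genes of the lost set met the W+ limit more often. No test was run on this difference. The 8 genes with under 500 exonic bases had a median of 12.5 reads over the 11 W- libraries, from 1 to 363 reads.

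The 4 genes with over 10000 exonic bases were all at 86.1% of the S mean or more in W+ 2 and W+ 5, and 2 of them also in W+ 3. In W+ 2 they stood at 86.1%, 117%, 87.4% and 101% of the S mean and in W+ 5 at 94.8%, 90.3%, 96.1% and 110%. In W+ 1 they stood at 26.1%, 38.4%, 22.4% and 60.4%, in W+ 3 at 51.9%, 103%, 58.6% and 97.04%, and in W+ 4 at 60.7%, 81.7%, 51.6% and 82.9%. W+ 1 was the lowest W+ male in all 4. Over the 4 genes the median was 94.3% in W+ 2 and 95.4% in W+ 5, against 69.8% and 78.1% over all 197 genes. With 4 genes, nothing is read from this about length.

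**Figure D5:**
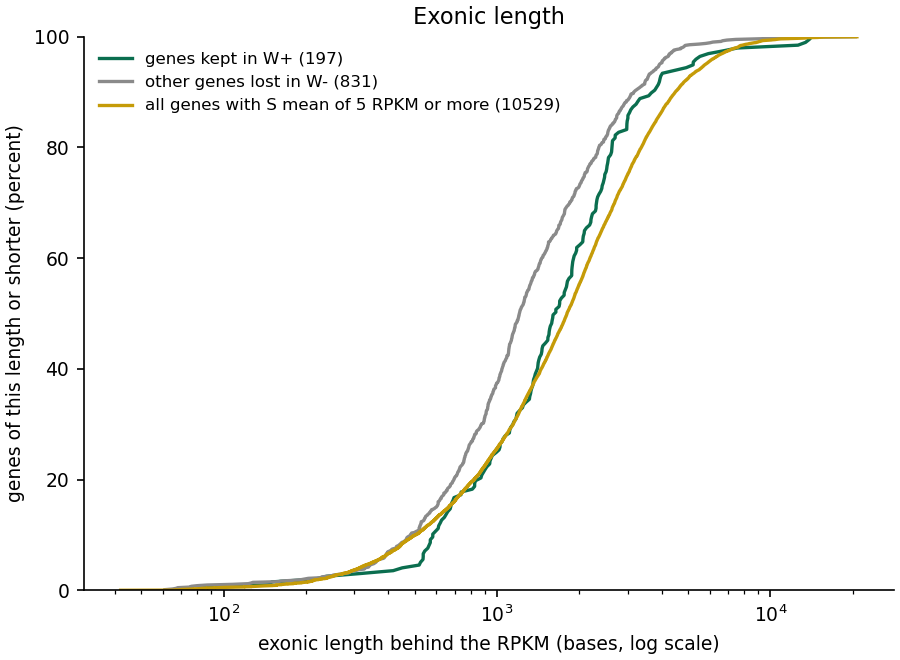
Percent of genes of a given exonic length or shorter (vertical) against exonic length in bases recovered from the RPKM (horizontal, log axis), as 1 line each for the 197 genes, the other lost genes and all genes with an S mean of at least 5. The 197 genes, with a median of 1641 bases, lie between the other lost genes (1209 bases) and all genes (1803 bases).

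At the fold limit and the W+ limit of the rule the genes inside and outside had nearly equal values, whereas at the S limit they lay further apart. The 3 nearest genes had an S mean of 5.63, 5.66 and 5.76 RPKM inside and 4.87, 4.50 and 4.36 RPKM outside, with the other limits met. For the S mean over the W- mean they had 16.02, 16.04 and 16.07 inside and 15.99, 15.95 and 15.94 outside, and for the W+ mean over the S mean 0.601, 0.602 and 0.603 inside and 0.5999, 0.5995 and 0.5987 outside. No gap thus set the 197 genes apart at the fold limit or the W+ limit.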

How the data were processed

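Testis poly(A) RNA of 34 males (18 S, 11 W-, 5 W+, 1 library an animal) was used, with groups taken from the sample titles. The authors trimmed single-end reads with trim_galore 0.6.10, checked them with FastQC 0.12.1, used Hisat2 for alignment to the prairie vole assembly MicOch1 (the submitters' processing notes also list a mouse build) and HTSeq-count for gene counts, and took RPKM from a DESeq2 normalization. Not given in the sources used here are the annotation release, the strand setting and how multiply aligned reads were handled. Counting vole reads on a related species' genes may lower the values of diverged genes and mix near-identical copies.

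The deposited table gives RPKM for 23038 genes, 2217 of them at 0 throughout. Whole reads and exonic lengths were recovered from the RPKM steps: 100% of 20821 genes gave whole reads in all values within a tolerance of 0.02 reads, and 20798 gave a whole length. The RPKM library sizes were proportional to median-of-ratios size factors. Recovery and fit were tested on simulated data.

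Group means used the RPKM as deposited. Comparisons were fitted on log2(RPKM + 0.1) by limma 3.58.1 (R 4.3.3; moderated variances with an intensity trend) over the 34 libraries jointly, without a block, for the 19185 genes at 0.1 RPKM or more in at least 5 libraries. A fold change on this scale understates the change of low genes. Calls needed a Benjamini-Hochberg adjusted p under 0.05 and a log2 fold change beyond 1. The number of counted reads limits the W- values most, and floors cover counting error only.

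The rule, the genes and the lists were chosen with earlier results of these data known. Named genes were to be those with the highest S means, the highest and lowest W+ over S, the highest W- means, those at the limits of the rule, and members of gene lists by symbol. Since 0 identifiers could be paired with symbols, the lists and cell type markers were not used here, no sequence is given, and few identifiers are printed. Alternatives were other scalings, pseudocounts, filters, thresholds, group medians, fits by pair of groups, voom on the recovered reads, a replicate block and left-out libraries.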

Additional observations from a re-analysis of the deposited data

Results flagged for a closer look

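Of 8 measures examined for a sample far from the rest of its group, 2 were marked, both for W+ 1. Chance marks about 1 in 20 such groups. The rule used the W+ mean of these genes, so that rate need not hold here and the marks are a description. The median level of the 197 genes was 38.9% of the S mean in W+ 1 while the other W+ males had 69.8% to 81.4%. Its distance to its nearest neighbour was 0.726 of the spread from lowest to highest, and the limit for 5 samples is 0.71. The share of counted reads was 1.64%, while the others had 2.58% to 2.74%, and there the same fraction was 0.859. In the other lost genes W+ 1 was also the lowest, but its gap was a smaller part of the spread. Its median there was 20.6% of the S mean, while the other W+ males had 32.2% to 56.0%. Its read share there was 4.31%, while the others had 6.70% to 9.87%. Both marked measures come from the same libraries and genes, so they are not separate evidence, and no cause was tested.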

How the results depend on the processing

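All 197 genes stayed called in S vs W- and in W+ vs W-, and none was called higher in W+ than in S, under every alternative run. The 1 gene called lower in W+ became 6 with a replicate block (8.55% of all genes tested) and 35 with no fold threshold (17.0%), and 0 to 2 when 1 W+ male was left out (4.03% to 7.91%). Same-numbered animals did not deviate together (correlations from -0.16 to 0.14, and 1 of 21 pairs over 0.1). No pairing by number was thus seen, though such a check cannot exclude one. The number of genes meeting the rule was 496 with an S mean at least 8 times the W- mean, 19 at 32 times, 380 with W+ at 0.5 of S and 84 at 0.7. Leaving out 1 W+ male gave 156 to 300, with 300 without W+ 1. Group medians gave 286 genes, 174 of them among the 197. Leaving out S 12 to S 15, which had the most counted reads, gave 201, with 192 shared, an alternative added after seeing the data. The median log2 difference in W+ vs S ranged from -0.66 to -0.40 over left-out W+ males and from -0.64 to -0.57 over pseudocounts and voom, and was -0.30 with quantile normalization. Of the named genes' differences in W+ vs S, 266 moved by less than the spread of replicates and 14 by more. The sign changed in 3 of the 28 named genes with equal library sums, in 2 with quantile normalization and in 2 without W+ 1, in 4 genes in all, none of them called. The causes were not tested.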
